A study of Mus musculus with 4 samples.

Results

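The genes described here encode the nuclear subunits of complexes II to V of the mitochondrial respiratory chain, with cytochrome c, the carrier between complexes III and IV. They were taken as all protein-coding nuclear genes whose mouse symbol is Sdha, Sdhb, Sdhc, Sdhd, Cyc1 or Cycs, or begins with Uqcr, Cox4 to Cox8 or Atp5. The symbols matched 51 genes, of which 46 were among the 15462 genes of the normalized table. Of these 46, 42 are subunits or cytochrome c: 4 in complex II, 9 in complex III, 13 in complex IV, 15 in complex V, and Cycs. The other 4 carry a matching symbol and are no subunit: Cox7a2l, a factor that joins complexes III and IV into supercomplexes, Cox4nb, a member of the endoplasmic reticulum membrane complex, Atp5s and Atp5sl. The 5 matched genes outside the normalized table were Cox6a2, Cox7b2, Cox8b, Cox8c and Atp5l-ps1, and the symbol pattern also took 1 pseudogene, which was left out.

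The data came from R1 mouse embryonic stem cells (ESCs) of strain 129/Sv, either wild type (WT) or with Cripto, a co-receptor of Nodal signalling, knocked out (Cripto KO). Each genotype was grown in serum/LIF, which keeps ESCs self-renewing, or in N2B27 with bFGF and 20 ng/ml Activin A (F/A) for 6 days, the protocol used to derive epiblast stem cells. RNA of each of the 4 cultures was sequenced as 1 library. The study worked with a pair of knockout clones, DE7 and DE14, and the sources used here do not say which of them was sequenced. With 1 library per condition no difference has a replicate error and none was tested, so every comparison below is between single cultures, and a gene is set apart only by a fold of at least 2. In bulk RNA, fewer cells of a type and less RNA per cell cannot be told apart.

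Complex II oxidizes succinate and complex III passes the electrons from ubiquinol to cytochrome c, from which complex IV hands them to oxygen. Complexes III and IV pump protons out of the matrix, and complex V, the ATP synthase, lets them return through a rotating ring and makes ATP. Naive ESCs are known to respire actively, and primed epiblast stem cells to rely more on glycolysis.

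The library totals ran from 15230856 to 17315442 counts. Counts of the Cripto KO F/A library were nearly all even, with 0.016% odd against 53.1 to 53.6% in the other 3, so its counts were halved for counting intervals. The targeted gene, listed as Tdgf1, had 18714 counts in WT serum/LIF, 1572 in WT F/A, 945 in Cripto KO serum/LIF and 86 in Cripto KO F/A, so reads were fewer in the knockout libraries of both cultures and were not at 0. Markers of naive pluripotency (6 of 7 matched) summed to 3220 CPM (counts scaled by the library total) in WT serum/LIF and 2860 in Cripto KO serum/LIF, and to 28.5 and 45.5 in the F/A libraries.

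All 46 genes had less transcript in WT F/A than in WT serum/LIF, and 30 of them (65.2%) were at least 2-fold lower, while 20.9% of all genes in the table were at least 2-fold lower and 22.1% at least 2-fold higher. Their median log2 ratio was -1.17, a ratio of 0.443, beside -0.07 over all 15462 genes, of which 8111 were lower and 7313 higher. In Cripto KO cells 37 were lower and 9 higher, 6 (13%) were at least 2-fold lower and none at least 2-fold higher, beside 19.4% and 19.9% of all genes. The median there was -0.47, a ratio of 0.724, beside -0.07 over all genes, of which 8170 were lower and 7267 higher. Together the 46 genes took 1.11% of all counts in WT serum/LIF, 0.489% in WT F/A, 0.957% in Cripto KO serum/LIF and 0.668% in Cripto KO F/A. WT serum/LIF was the highest of the 4 libraries for 41 genes and WT F/A the lowest for 42. For 33 genes the 4 libraries stood in 1 order, from WT serum/LIF through Cripto KO serum/LIF and Cripto KO F/A down to WT F/A. These counts of order were not taken over all genes, so they do not show a trait particular to the 46.

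**Figure D1:**
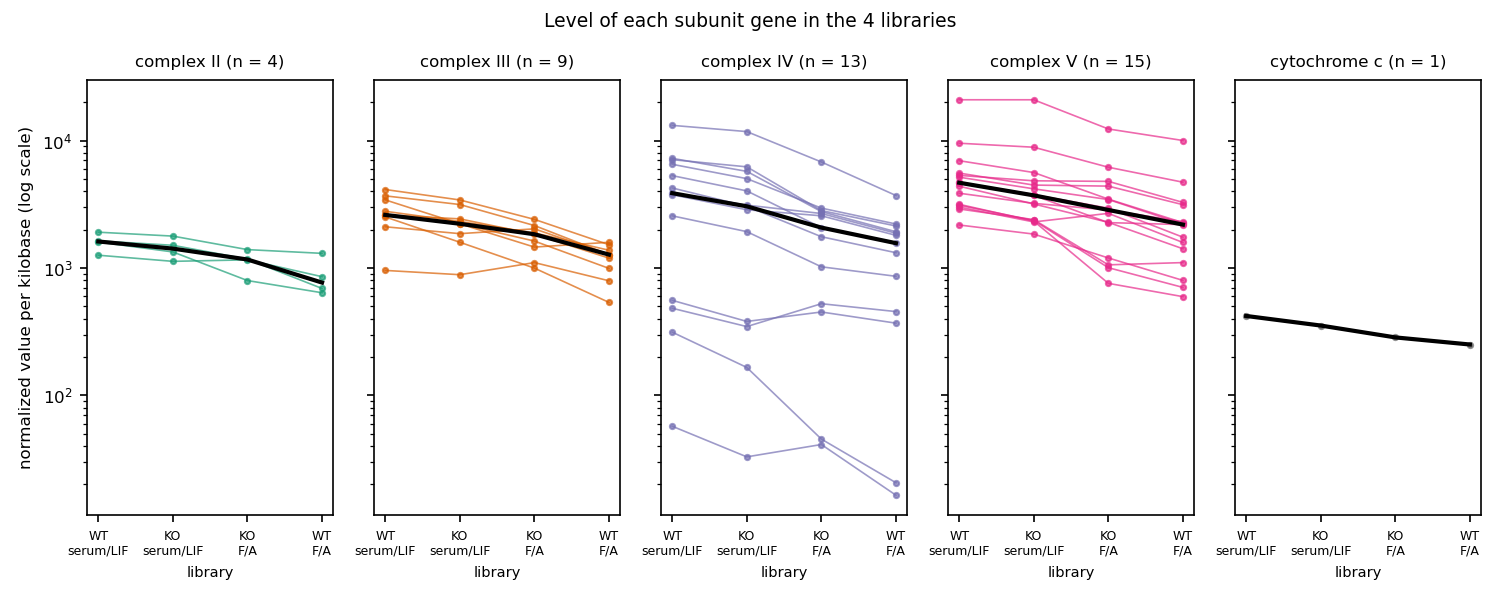
Normalized value per kilobase of the median protein-coding transcript (log scale) of each subunit gene in the 4 libraries, by complex, with the 4 libraries ordered as WT serum/LIF, Cripto KO serum/LIF, Cripto KO F/A and WT F/A, 1 thin line per gene and the median of the genes in black. The median declines from left to right in every complex, and a few complex IV genes lie far below the rest, among them the tissue-restricted isoforms.

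Among the subunits, complex IV had the lowest median and complex II the highest. The median log2 ratio of F/A over serum/LIF in WT was -0.90 for complex II, -1.13 for complex III, -1.69 for complex IV and -1.22 for complex V, with 2 of 4, 6 of 9, 11 of 13 and 11 of 15 genes at least 2-fold lower. In Cripto KO the same medians were -0.36, -0.45, -0.79 and -0.52, with 0, 0, 3 and 3 genes at least 2-fold lower. The order of the 4 complexes was thus the same in both genotypes, and the Cripto KO change was the smaller in each. With transcript length subtracted, as described further on, complex II was not always the highest in WT. Without the 3 tissue-restricted isoforms that were in the table, the complex IV medians were -1.63 in WT and -0.79 in Cripto KO over 10 genes. Complex V took the largest share of all counts, 0.686% in WT serum/LIF, 0.294% in WT F/A, 0.598% in Cripto KO serum/LIF and 0.403% in Cripto KO F/A. Complex IV took 0.203, 0.0712, 0.168 and 0.1% in the same order, complex III 0.126, 0.062, 0.107 and 0.0892%, and complex II 0.0619, 0.0397, 0.0585 and 0.0468%. Per kilobase, the median normalized value in WT serum/LIF was 1613 for complex II, 2606 for complex III, 4772 for complex IV without the restricted isoforms and 4662 for complex V, and in WT F/A it was 771.5, 1272, 1836 and 2188.

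**Figure D2:**
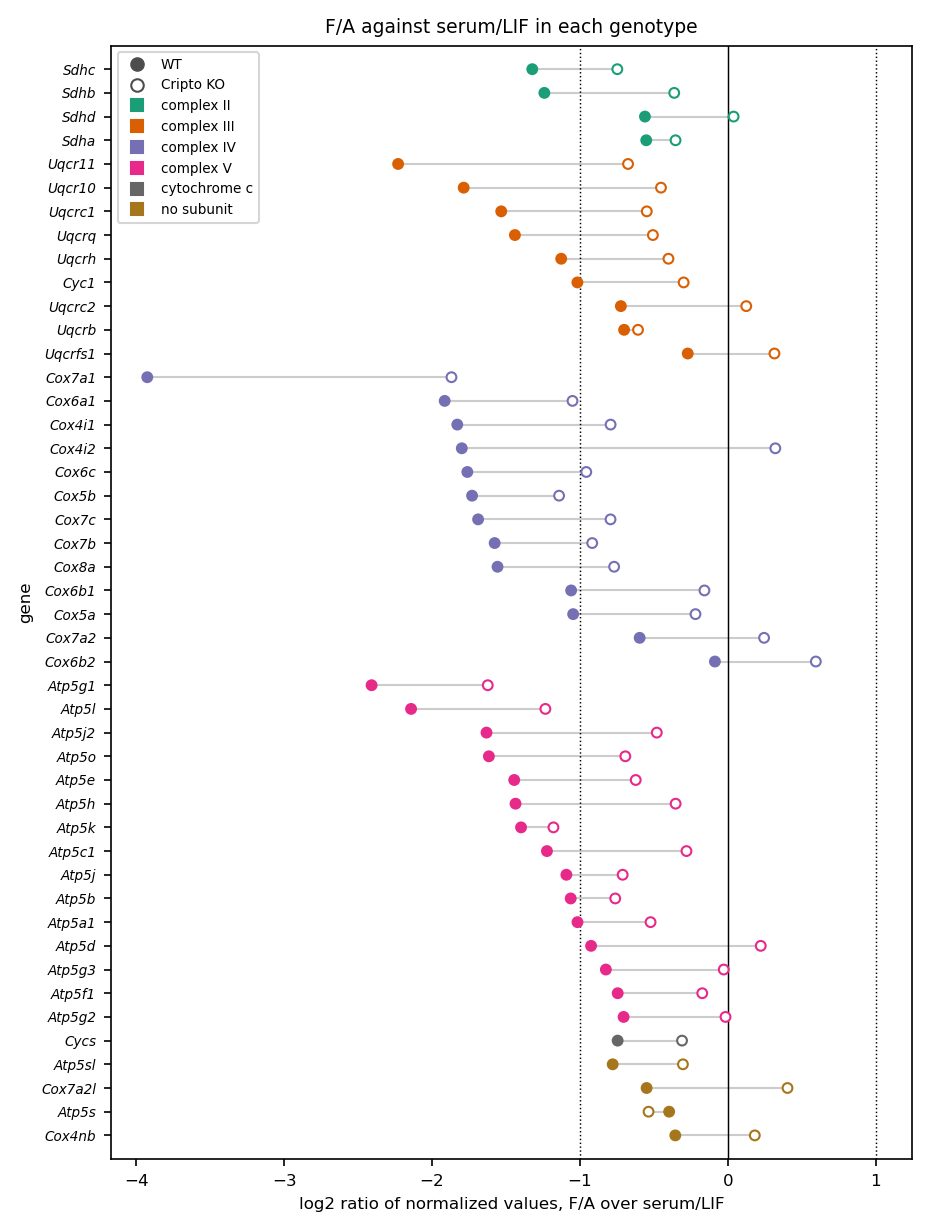
Log2 ratio of normalized values, F/A over serum/LIF, for each of the 46 genes, grouped by complex and ordered by the WT value, with filled points for WT, open points for Cripto KO and dotted lines at a fold of 2. All filled points lie left of 0, 9 open points lie right of it, and Atp5s is the 1 gene whose open point lies left of its filled one.

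Sequence just before the transcription start is shown for 7 genes, 5 whose promoters hold a motif of a factor known for respiratory chain promoters, from each complex and from cytochrome c, and the subunits with the lowest WT ratio in complexes IV and V, in which none was found. The windows are the 150 bases before the RefSeq start in build GRCm38.p6, 5′ to 3′ on the strand of the gene, and capitals mark the motifs of NRF1 (GCGCANGCG) and of the ETS factor GABPA (CCGGAAG) on either strand.
Sdhd (chr9:50603850-50603999, minus strand): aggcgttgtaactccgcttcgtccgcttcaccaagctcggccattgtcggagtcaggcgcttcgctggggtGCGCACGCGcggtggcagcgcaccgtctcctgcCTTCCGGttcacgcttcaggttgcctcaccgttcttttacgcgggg
Uqcr11 (chr10:80406822-80406971, minus strand): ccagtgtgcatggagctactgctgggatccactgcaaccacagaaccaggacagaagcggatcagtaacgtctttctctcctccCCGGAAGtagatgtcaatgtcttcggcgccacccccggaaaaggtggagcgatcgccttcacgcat
Cox6a1 (chr5:115348959-115349108, minus strand): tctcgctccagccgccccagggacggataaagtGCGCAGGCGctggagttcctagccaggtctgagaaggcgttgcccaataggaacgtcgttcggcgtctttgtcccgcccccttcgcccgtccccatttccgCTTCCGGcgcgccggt
Cox7a1 (chr7:30184021-30184170, plus strand): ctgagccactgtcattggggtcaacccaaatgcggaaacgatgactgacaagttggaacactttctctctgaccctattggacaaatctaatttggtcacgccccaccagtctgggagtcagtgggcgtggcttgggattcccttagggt
Atp5h (chr11:115419920-115420069, minus strand): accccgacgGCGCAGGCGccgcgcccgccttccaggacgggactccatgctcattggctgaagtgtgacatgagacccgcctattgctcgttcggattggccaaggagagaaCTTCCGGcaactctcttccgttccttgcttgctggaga
Atp5g1 (chr11:96075632-96075781, minus strand): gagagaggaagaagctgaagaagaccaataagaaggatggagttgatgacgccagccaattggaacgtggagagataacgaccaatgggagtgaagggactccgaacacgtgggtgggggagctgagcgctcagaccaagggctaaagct
Cycs (chr6:50566570-50566719, minus strand): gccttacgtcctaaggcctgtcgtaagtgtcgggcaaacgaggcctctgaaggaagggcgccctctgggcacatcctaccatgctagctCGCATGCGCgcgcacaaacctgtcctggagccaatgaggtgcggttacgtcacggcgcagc
The RefSeq table held a promoter for 36 of the 46 genes, matched by symbol or older symbol, and none for Atp5a1, Cox4i1, Cox4i2, Cox4nb, Cox6c, Cyc1, Sdhc, Uqcrb, Uqcrc2 and Uqcrq. Each window searched for the counts ran from 250 bases before to 50 after the start. The NRF1 motif was in 13 of 36 (36.1%), beside 7.03% of 27025 genes with a promoter, and the ETS motif in 12 (33.3%), beside 9.93%. A YY1 motif (AANATGGCG) was in 4 (11.1%, beside 2.76%) and an ERR motif (TNAAGGTCA) in 2 (5.56%, beside 1.43%). The NRF1 motif nearly reads the same on both strands, so 1 site can match as a pair of overlapping hits. Uqcr11 also held the NRF1 motif across its start, at position -5, of which the first bases end the letters shown, in lower case. The promoters of the 36 genes had a median GC content of 56.5%, against 52.7% over all genes, and these motifs are rich in G and C. All genes are here those with a RefSeq promoter, not limited to genes expressed in these cells, so the shares are not compared at like expression. Genes with the NRF1 motif had a median WT log2 ratio of -1.40 and those without it -1.09. For the ETS motif the values were -1.42 and -0.99. The other motifs went the opposite way, with -1.08 and -1.23 for YY1 and -0.69 and -1.23 for ERR. Those rest on 4 and 2 genes with the motif, and all these values are given as a description only.

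Complex II is succinate dehydrogenase, and all 4 of its genes were lower in WT F/A than in WT serum/LIF. Sdhc, a membrane anchor, had normalized values of 1301 in WT serum/LIF, 520.2 in WT F/A, 1088 in Cripto KO serum/LIF and 648 in Cripto KO F/A. Its ratio of F/A over serum/LIF was 0.4 (interval 0.379 to 0.467) in WT and 0.596 (interval 0.551 to 0.709) in Cripto KO, where intervals here and below are 95% Clopper-Pearson intervals of the ratio of CPM and cover counting error only. Since the printed ratio is of quantile-normalized values, it can lie outside that interval, as it did for 9 of the 46 genes in WT. Sdhb, the iron-sulphur protein, had a ratio of 0.423 in WT and 0.778 in Cripto KO, so both Sdhb and Sdhc were at least 2-fold lower in WT alone. Sdha, the flavoprotein that oxidizes succinate, had the highest WT ratio of the complex, with 5529.5 in WT serum/LIF, 3774 in WT F/A, 5155 in Cripto KO serum/LIF and 4036 in Cripto KO F/A and ratios of 0.682 (interval 0.697 to 0.757) and 0.783 (interval 0.73 to 0.81). Sdhd, the other anchor, had 1619 in WT serum/LIF, 1098 in WT F/A, 1449 in Cripto KO serum/LIF and 1489 in Cripto KO F/A. It was lower in WT F/A, at 0.678 (interval 0.679 to 0.793), and in Cripto KO its ratio of 1.03 (interval 0.966 to 1.16) could not be told from 1 within counting error.

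Complex III passes electrons on to cytochrome c, and its 9 genes were all lower in WT F/A. The 5 small subunits Uqcr10, Uqcr11, Uqcrb, Uqcrh and Uqcrq had a median WT log2 ratio of -1.44 and 4 were at least 2-fold lower, while the redox subunits Cyc1 (cytochrome c1) and Uqcrfs1 (the Rieske protein) had -1.02 and -0.27 and the core proteins Uqcrc1 and Uqcrc2 -1.53 and -0.72. Uqcr11 had the lowest ratio of the complex, with 1119 in WT serum/LIF, 238 in WT F/A, 708 in Cripto KO serum/LIF and 444 in Cripto KO F/A, or 0.213 (interval 0.2 to 0.266) in WT and 0.627 (interval 0.578 to 0.785) in Cripto KO. Uqcr10, next in order, had 1484 in WT serum/LIF, 430.2 in WT F/A, 964 in Cripto KO serum/LIF and 705 in Cripto KO F/A. Both genes were also among the subunits that were lowest in Cripto KO serum/LIF against WT serum/LIF, at ratios of 0.633 and 0.649.

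The Rieske gene stood at the other end of complex III. Uqcrfs1 had 1303 in WT serum/LIF, 1079.8 in WT F/A, 1206 in Cripto KO serum/LIF and 1501 in Cripto KO F/A, a ratio of 0.829 (interval 0.824 to 0.969) in WT and 1.25 (interval 1.18 to 1.42) in Cripto KO, so that its Cripto KO F/A library was the highest of the 4. The core proteins differed from each other: Uqcrc1 had ratios of 0.346 in WT and 0.684 in Cripto KO. Uqcrc2 had 3891 in WT serum/LIF, 2358 in WT F/A, 3436 in Cripto KO serum/LIF and 3748 in Cripto KO F/A, which was lower in WT, at 0.606 (interval 0.605 to 0.67), and slightly higher in Cripto KO, at 1.09 (interval 1.02 to 1.14). Uqcrb had nearly the same ratio in both genotypes, 0.615 and 0.657, and was 1 of 3 genes that were lower in Cripto KO than in WT in F/A.

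Complex IV is cytochrome c oxidase, and all 13 of its genes were lower in WT F/A. Its 4 subunits without an isoform were all at least 2-fold lower in WT, with log2 ratios of -1.05 for Cox5a, -1.73 for Cox5b, -1.76 for Cox6c and -1.69 for Cox7c. In Cripto KO the same genes had -0.22, -1.14, -0.96 and -0.79. Cox5b alone of these was at least 2-fold lower in Cripto KO, with 3683 in WT serum/LIF, 1111 in WT F/A, 3234 in Cripto KO serum/LIF and 1467 in Cripto KO F/A and a ratio of 0.454 (interval 0.423 to 0.497).

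Several complex IV subunits have a form used in most tissues and a form restricted to a few, and the common forms made up most of the counts. Cox4i1, the common form of the subunit 4, had 8927 in WT serum/LIF, 2512 in WT F/A, 7976 in Cripto KO serum/LIF and 4606 in Cripto KO F/A, with ratios of 0.281 (interval 0.28 to 0.306) and 0.578 (interval 0.542 to 0.595). Cox6a1 had 4138 in WT serum/LIF, 1098 in WT F/A, 3270 in Cripto KO serum/LIF and 1579 in Cripto KO F/A, and was at least 2-fold lower in both genotypes, at 0.265 (interval 0.262 to 0.3) and 0.483 (interval 0.446 to 0.523). Cox8a had 3547 in WT serum/LIF, 1205 in WT F/A, 2736 in Cripto KO serum/LIF and 1606 in Cripto KO F/A, Cox7b had 2566, 860.2, 1928 and 1022 in the same libraries and Cox6b1 1895, 909.5, 1445 and 1296. These 3 had WT ratios of 0.34 (interval 0.337 to 0.385), 0.335 (interval 0.333 to 0.389) and 0.48 (interval 0.474 to 0.556). In Cripto KO their ratios were 0.587 (interval 0.539 to 0.632), 0.53 (interval 0.489 to 0.596) and 0.896 (interval 0.845 to 1.02). Cox7a2 was the exception among the 6 common forms, with 419.8 in WT serum/LIF, 278 in WT F/A, 287 in Cripto KO serum/LIF and 339.9 in Cripto KO F/A, a ratio of 0.662 (interval 0.597 to 0.813) in WT and a higher value in Cripto KO F/A, at 1.19 (interval 1.07 to 1.58).

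The restricted forms did not follow 1 pattern. Cox6b2 and Cox7a1 both lie on chromosome 7, at chr7:4703396-4704696 on the minus strand and chr7:30969190-30971047 on the plus strand in mm9. Cox7a1, the form of heart and skeletal muscle, had the lowest WT ratio of all 46 genes, with 114 in WT serum/LIF, 7.5 in WT F/A, 60.2 in Cripto KO serum/LIF and 16.5 in Cripto KO F/A, a ratio of 0.0658 (interval 0.0253 to 0.136) in WT and 0.274 (interval 0.0945 to 0.537) in Cripto KO. The raw counts behind these values were 124, 7, 59 and 14, so the F/A values rest on few reads. Raw counts of Cripto KO F/A are printed before halving, here and elsewhere. Cox4i2, the form of lung, had 41.8 in WT serum/LIF, 12 in WT F/A, 24 in Cripto KO serum/LIF and 30 in Cripto KO F/A from 48, 11, 24 and 26 counts, lower in WT F/A at 0.287 (interval 0.122 to 0.509) and within counting error of 1 in Cripto KO at 1.25 (interval 0.523 to 2.29). Cox6b2, the testis form of the subunit 6b, had 266 in WT serum/LIF, 250.2 in WT F/A, 191 in Cripto KO serum/LIF and 288 in Cripto KO F/A. Its WT ratio of 0.942 (interval 0.821 to 1.16) was the highest of the 46, and in Cripto KO it was 1.51 (interval 1.32 to 2.07).

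As shares of the counts of their family, Cox6b2 and Cox7a1 moved in opposite directions. Cox6b2 took 12.6% (interval 11.3 to 14.1%) of the Cox6b counts in WT serum/LIF and 21.6% (interval 19.2 to 24.1%) in WT F/A. In Cripto KO it took 11.2% (interval 9.7 to 12.8%) in serum/LIF and 18.4% (interval 15.7 to 21.2%) in F/A, so the share was higher in F/A in both genotypes, with intervals that did not overlap. Cox7a1 took 6.59% (interval 5.51 to 7.8%) of the Cox7a counts in WT serum/LIF and 0.618% (interval 0.249 to 1.27%) in WT F/A, and 3.96% (interval 3.03 to 5.08%) and 0.746% (interval 0.3 to 1.53%) in Cripto KO, where the family is Cox7a1, Cox7a2 and Cox7a2l. Most of these counts were of Cox7a2l, which is no subunit, at 69.9% in WT serum/LIF, 75.4% in WT F/A, 77.8% in Cripto KO serum/LIF and 81.0% in Cripto KO F/A. The coding transcript of Cox7a2l is repeated elsewhere in the genome by 99.4%, which the intervals do not cover. The share of Cox4i2 in its family was under 1% in all 4 libraries, from 0.295% to 0.58%, with intervals that overlapped between the cultures of each genotype.

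**Figure D3:**
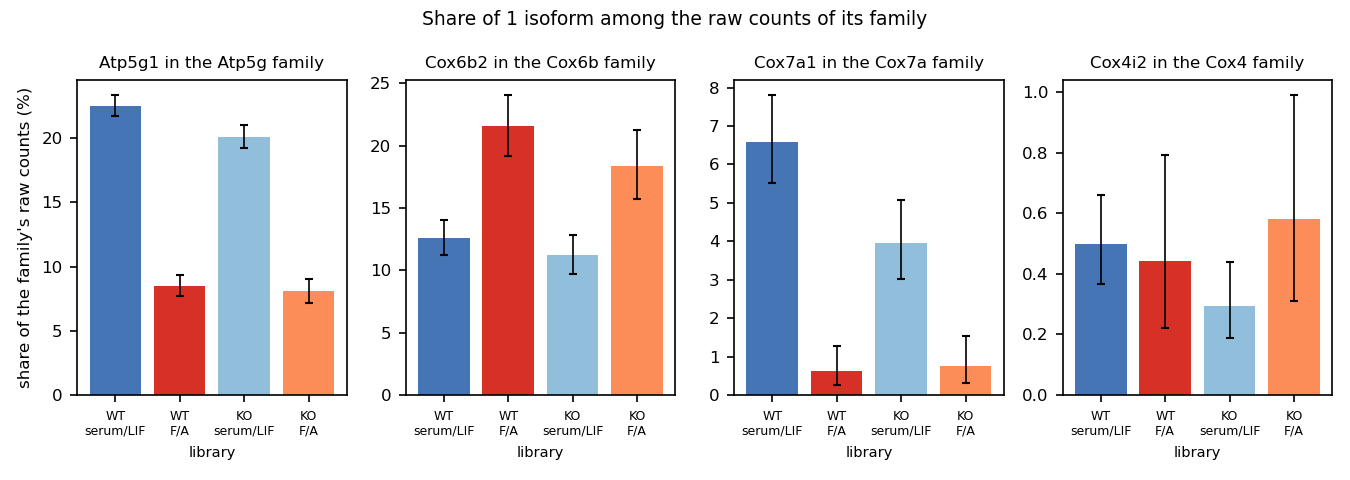
Share (%) of 1 isoform among the raw counts of its family in each of the 4 libraries, for Atp5g1, Cox6b2, Cox7a1 and Cox4i2, with 95% Clopper-Pearson intervals for counting error. Atp5g1 and Cox7a1 take a smaller share in the F/A libraries and Cox6b2 a larger one, while the Cox4i2 intervals are wide.

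The 4 restricted forms outside the normalized table had few counts. Cox6a2, the form of heart and skeletal muscle, had 4 counts in WT serum/LIF, 8 in WT F/A, 10 in Cripto KO serum/LIF and 16 in Cripto KO F/A, or up to 1.03% of the Cox6a counts. Cox7b2, a testis form, had 19, 0, 2 and 0 in the same order. Cox8b, of heart and muscle, had 2, 0, 1 and 0, and Cox8c, of testis, had 3, 0, 2 and 0. A count of 0 allows up to 3 counts, or 0.197 CPM, in WT F/A and up to 6 counts, or 0.381 CPM, in Cripto KO F/A. The processed copy Atp5l-ps1 had 0 counts in all 4 libraries.

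Markers of the tissues for which these forms are named were measured in the same libraries. All 8 heart and striated muscle markers were matched, 6 of them in the normalized table, and they summed to 12.6, 154, 6.70 and 220 CPM in WT serum/LIF, WT F/A, Cripto KO serum/LIF and Cripto KO F/A, with 1 of the 8 at or under the detection limit in each library. The creatine kinase gene Ckm of mature muscle had 12, 2, 8 and 0 counts and Mb (myoglobin) 5, 12, 7 and 8. The 5 germ cell and testis markers summed to 85.6, 2.76, 94.4 and 1.78 CPM, and the protamine gene Prm1 had 0, 3, 0 and 0 counts. Cox7a1 was highest in WT serum/LIF, where the muscle list was low. Cox6a2, also of heart and muscle, had 0.231, 0.525, 0.615 and 1.02 CPM in the same order. It was highest in Cripto KO F/A, where the list was highest, and rests on few counts. The part of these cell types in the isoform values was not tested.

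Complex V, the ATP synthase, held the most abundant of these genes. Atp5a1 and Atp5b, which form the catalytic head, took 0.439% of all counts in WT serum/LIF, 0.178% in WT F/A, 0.395% in Cripto KO serum/LIF and 0.244% in Cripto KO F/A. Their ratios of normalized values in WT were 0.494 and 0.479, which lie above the counting intervals of the ratio of CPM, 0.432 to 0.452 and 0.378 to 0.391. Quantile normalization gives a gene the value of its rank: Atp5b was at rank 13 in both serum/LIF libraries and so had 40009.5 in each, while its CPM were lower in Cripto KO serum/LIF, with an interval of 0.888 to 0.912. Per kilobase of the median protein-coding transcript, Atp5b had the highest normalized value of all these genes in WT serum/LIF, 20880, followed by Cox4i1 at 13150 and Atp5a1 at 9521.

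By the parts of complex V, the median WT log2 ratio was -1.04 for the head, -1.22 for the central stalk, -1.26 for the peripheral stalk, -1.63 for the small membrane subunits and -0.82 for the c ring. In the central stalk the WT ratios were 0.428 for Atp5c1, 0.527 for Atp5d and 0.367 for Atp5e. Atp5d had 2796 in WT serum/LIF, 1474 in WT F/A, 2137 in Cripto KO serum/LIF and 2495 in Cripto KO F/A, with a WT interval of 0.523 to 0.594, and was higher in Cripto KO F/A than in Cripto KO serum/LIF, at 1.17 (interval 1.07 to 1.24). In the peripheral stalk, which keeps the head from turning, the log2 ratios were -0.74 for Atp5f1, -1.44 for Atp5h, -1.09 for Atp5j and -1.62 for Atp5o, and all 4 were less than 2-fold lower in Cripto KO.

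The small membrane subunits Atp5j2, Atp5k and Atp5l were all at least 2-fold lower in WT, and Atp5k and Atp5l also in Cripto KO. Atp5l, subunit g, had 1585 in WT serum/LIF, 359 in WT F/A, 1206 in Cripto KO serum/LIF and 513 in Cripto KO F/A, or 0.227 (interval 0.212 to 0.268) in WT and 0.425 (interval 0.394 to 0.518) in Cripto KO. Atp5k, subunit e, had 933 in WT serum/LIF, 354 in WT F/A, 769.5 in Cripto KO serum/LIF and 339.9 in Cripto KO F/A, or 0.38 (interval 0.352 to 0.452) and 0.442 (interval 0.397 to 0.557). Atp5k was thus among the few genes with nearly the same ratio in both genotypes, and its F/A values did not differ between genotypes beyond counting error, at 0.96 (interval 0.805 to 1.17). Atp5j2, subunit f, had log2 ratios of -1.63 and -0.48.

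The c ring of complex V is encoded by 3 genes whose mature proteins are the same and whose mitochondrial leader peptides differ, and their transcripts behaved unequally. In the build of the files (NCBIM37, mm9), Atp5g1 lies at chr11:95930166-95936984, Atp5g2 at chr15:102493299-102501478 and Atp5g3 at chr2:73746504-73749383, all on the minus strand. Atp5g1 had 2183 in WT serum/LIF, 411 in WT F/A, 1610.2 in Cripto KO serum/LIF and 523 in Cripto KO F/A, with ratios of 0.188 (interval 0.175 to 0.218) in WT and 0.325 (interval 0.298 to 0.388) in Cripto KO, the lowest of complex V in both. Atp5g2 had 3445 in WT serum/LIF, 2114 in WT F/A, 3124 in Cripto KO serum/LIF and 3091 in Cripto KO F/A, a WT ratio of 0.614 (interval 0.602 to 0.672), the highest of complex V, and a Cripto KO ratio of 0.99 (interval 0.923 to 1.04). Atp5g3 had 3989 in WT serum/LIF, 2253 in WT F/A, 3210 in Cripto KO serum/LIF and 3151 in Cripto KO F/A, with 0.565 (interval 0.56 to 0.621) and 0.982 (interval 0.914 to 1.03). In Cripto KO the intervals of Atp5g2 and Atp5g3 thus held 1, while Atp5g1 was at least 2-fold lower.

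As shares of the family, Atp5g1 took 22.5% (interval 21.7 to 23.4%) of the c ring counts in WT serum/LIF and 8.52% (interval 7.73 to 9.36%) in WT F/A. In Cripto KO the shares were 20.1% (interval 19.2 to 21%) and 8.06% (interval 7.16 to 9.05%). In both genotypes the share was thus smaller after F/A, with intervals that did not overlap between the cultures and that overlapped between the F/A libraries. Per kilobase of transcript the 4 shares were 22.3, 8.42, 19.9 and 7.96% in the same order. Of the coding transcript of middle length, 77.7% in Atp5g1, 100% in Atp5g2 and 0% in Atp5g3 was repeated elsewhere in the genome. The intervals do not cover how reads of such copies were treated, which was not tested.

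Cytochrome c, encoded by Cycs, carries electrons from complex III to complex IV. Cycs had 1311 in WT serum/LIF, 782 in WT F/A, 1102 in Cripto KO serum/LIF and 889.5 in Cripto KO F/A, a ratio of 0.597 (interval 0.587 to 0.702) in WT and 0.807 (interval 0.757 to 0.947) in Cripto KO, and was less than 2-fold lower in both. Cyct, the testis form, which the symbols did not take, had 232, 2, 98 and 0 counts in the same order, so it was detected in serum/LIF and did not pass the detection limit in F/A. The summed germ cell markers given above were likewise lower in F/A in both genotypes, and their part in the Cyct counts was not tested.

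The 4 matched genes that are no subunit differed less between the cultures, with a median WT log2 ratio of -0.47 and none at a fold of 2. Cox7a2l had 1268 in WT serum/LIF, 867 in WT F/A, 1172 in Cripto KO serum/LIF and 1551 in Cripto KO F/A, lower in WT F/A at 0.684 (interval 0.676 to 0.805) and higher in Cripto KO F/A at 1.32 (interval 1.24 to 1.49). Cox4nb had 1752 in WT serum/LIF, 1370.2 in WT F/A, 1432 in Cripto KO serum/LIF and 1626 in Cripto KO F/A, with 0.782 (interval 0.783 to 0.903) and 1.14 (interval 1.06 to 1.26). Atp5s and Atp5sl had log2 ratios of -0.40 and -0.78 in WT and -0.54 and -0.30 in Cripto KO.

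Comparing the genotypes within a culture, most of these genes were higher in Cripto KO than in WT in F/A and lower in serum/LIF. In F/A 43 were higher and 3 lower, beside 7724 higher and 7538 lower of all 15462 genes. The median ratio of the 46 was 1.39 (log2 0.48). Of the 46, 2 were at least 2-fold higher and none at least 2-fold lower, beside 4.59% and 5.69% of all genes. The 2 were Cox4i2, at 2.5 (interval 0.946 to 5.64), and Cox7a1, at 2.2 (interval 0.579 to 6.47), and both rest on so few counts that their intervals hold 1. For 37 of the 46 genes the interval lay wholly above 1 and for 9 it held 1, where the interval lay above 1 for 24.5% of all genes. Intervals are narrower for genes with more counts, and all genes were not matched to the 46 in counts, so these shares also depend on abundance. Uqcr11 had the highest ratio among the well counted genes, 1.86 (interval 1.54 to 2.24), and Cox4i1 followed with 1.83 (interval 1.65 to 1.85). The 3 lower genes, Uqcrb, Atp5k and Atp5s, had log2 ratios of -0.13, -0.06 and -0.08.

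In serum/LIF 44 genes were lower in Cripto KO, 1 (Atp5s) was higher and 1 (Atp5b) was equal, beside 7561 lower and 7683 higher of all 15462 genes. The median ratio of the 46 was 0.821 (log2 -0.28). None reached a fold of 2 in either direction, beside 2.75% of all genes at least 2-fold lower and 2.86% at least 2-fold higher. For 40 genes the interval lay wholly below 1 and for 6 it held 1, where the interval lay below 1 for 21.8% of all genes. These shares, too, depend on the number of counts of each gene. The lowest ratios were those of Cox7a1, 0.528 (interval 0.365 to 0.696), and Cox4i2, 0.575 (interval 0.312 to 0.886), and among genes with more counts those of Uqcr11, 0.579 to 0.701, and Uqcr10, 0.604 to 0.711, as intervals. By CPM all 46 genes were lower in Cripto KO serum/LIF, so the direction of Atp5b and Atp5s depended on the scaling.

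**Figure D4:**
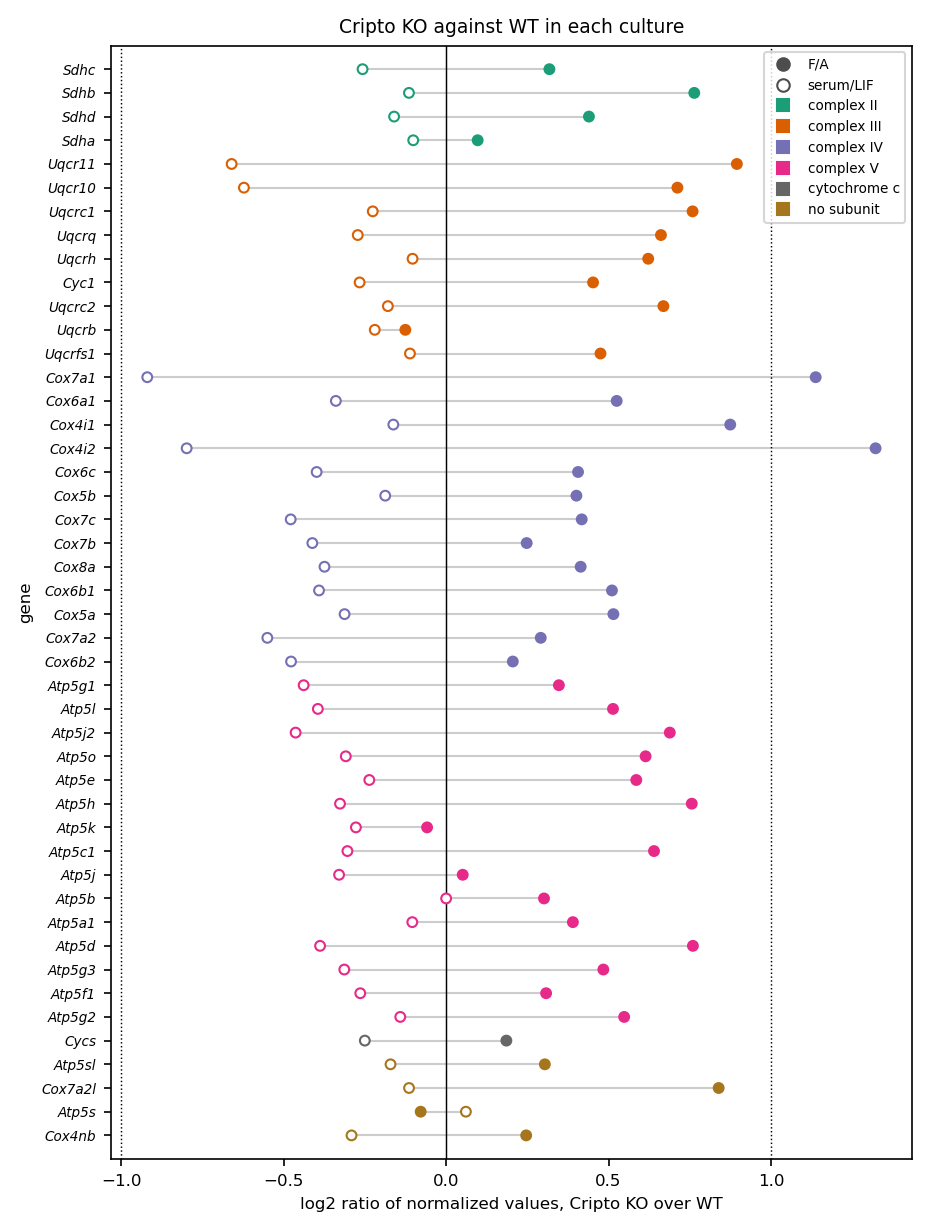
Log2 ratio of normalized values, Cripto KO over WT, for each of the 46 genes with genes grouped by complex, filled points for F/A, open points for serum/LIF and dotted lines at a fold of 2. Filled points lie right of 0 for 43 genes and open points left of it for 44, and the 2 filled points past a fold of 2 are Cox7a1 and Cox4i2.

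The difference of the log2 ratios, Cripto KO minus WT, was above 0 for 45 genes and below 0 for Atp5s, with a median of 0.80. The difference was at least 1 for 8 genes (17.4%), beside 7.69% of all genes: Cox4i2, Cox7a1, Uqcr11, Uqcr10, Atp5j2, Atp5d, Atp5h and Cox4i1. With transcript length subtracted, as described further on, that excess over all genes was lost. The medians by complex were 0.59 for II, 0.85 for III, 0.84 for IV and 0.80 for V, and Cycs had 0.44. The difference uses the same 4 libraries as the ratios above and is no further evidence for them. Trophoblast markers, of which 5 of 6 were matched and 4 were in the normalized table, summed to 4.39, 85.9, 1.54 and 220 CPM in WT serum/LIF, WT F/A, Cripto KO serum/LIF and Cripto KO F/A, with 4 of 5 at or under the detection limit in each serum/LIF library and 1 of 5 in each F/A library. Primed epiblast markers, all 5 matched and 4 in the table, summed to 172, 540, 188 and 229, and fibroblast markers, all 5 matched, to 106, 59.6, 112 and 142. Mesoderm and primitive streak markers (5 of 5 matched) summed to 6.76, 741, 3.26 and 435, and primitive endoderm markers (5 of 5 matched) to 20.2, 180, 16.7 and 267. The F/A cultures of the genotypes thus differed in these lists too, and their part in the difference was not tested.

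Most of these transcripts are short, and short transcripts as a whole were lower in WT F/A. The median of the annotated transcript lengths was 638 bases for the 46 genes, against 1824 bases for 9653 genes with a mean normalized value over 200. In the shortest eighth of those genes, up to 726 bases, the median WT log2 ratio was -0.43 and the median Cripto KO ratio -0.17, while the 27 genes of the respiratory chain in that eighth had -1.44 and -0.62. Across the 46 genes the rank correlation (Spearman's rho) of the WT ratio with length was 0.48, and that of the Cripto KO ratio 0.49, as a description over genes that share the same libraries. With the median length of the protein-coding transcripts the WT value was 0.60, and with the longest transcript 0.32. Annotated lengths are uncertain for some of these genes: Sdha had a median over all transcripts of 429 bases and over its coding transcripts of 2900 bases.

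Subtracting the running median of all genes over length left medians of the same direction that were nearer to 0, and took away much of the excess of genes at a fold of 2. With the median transcript length the WT median was -0.77, and 18 genes (39.1%) were at least 2-fold lower, beside 18.4% of all genes. The median coding transcript gave -0.70 and 12 genes (26.1%, beside 17.9%). With the longest transcript it was -0.64 and 9 genes (19.6%), a share close to the 17.4% of all genes, and 9 genes then stood above the running median. In Cripto KO the medians were -0.28, -0.24 and -0.25 for these lengths, with 3 (6.52%), 2 (4.35%) and 2 (4.35%) genes at least 2-fold lower, beside 18.3%, 17.6% and 18% of all genes.

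The difference Cripto KO minus WT was then at least 1 for 3 genes (6.52%) with the median transcript length, 3 (6.52%) with the coding transcript and 2 (4.35%) with the longest, beside 6.94%, 6.59% and 6.16% of all genes, so no excess over all genes was left at that size. Its median was 0.51, 0.43 and 0.33. By complex, the WT median with the median transcript length was -0.58 for II, -0.71 for III, -1.06 for IV and -0.79 for V. In the same order it was -0.49, -0.39, -0.84 and -0.74 with the longest transcript. With the coding transcript it was -0.61, -0.56, -0.98 and -0.66. Complex IV thus had the lowest with each length, while complex III, in place of complex II, had the highest with the longest and the coding transcript. The genes themselves are among those from which the running median was made. What made short transcripts lower in WT F/A was not tested.

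**Figure D5:**
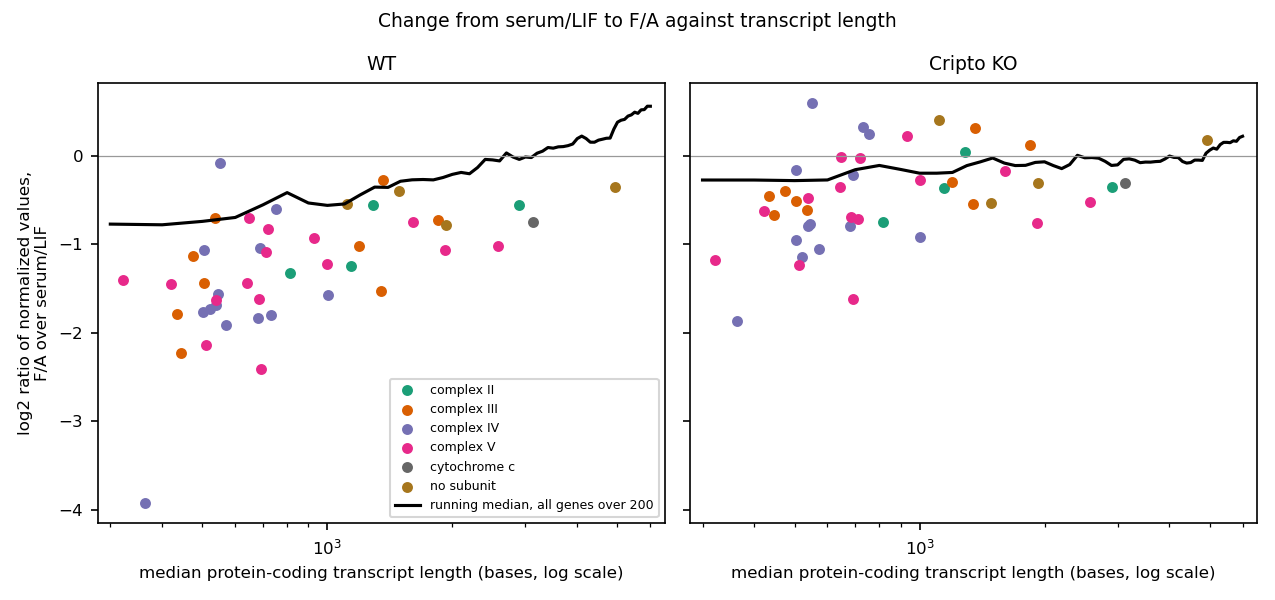
Log2 ratio of normalized values, F/A over serum/LIF, against the median length of the protein-coding transcripts (bases, log scale) for the 46 genes in WT and Cripto KO, with the running median over all genes with a mean normalized value over 200. In WT most points lie below the line, and in Cripto KO they lie nearer to it.

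Copies elsewhere in the genome could also touch the counts. For 10 of the 46 genes at least 50% of the coding transcript of middle length was repeated at 98% identity or more: Atp5f1, Atp5g1, Atp5g2, Atp5h, Atp5l, Cox5b, Cox7a2l, Cox7c, Uqcr11 and Uqcrb. How the alignment and counting treated reads that match such copies was not tested, and values of these genes are uncertain in level. Without them the WT median was -1.11, with 24 of 36 genes (66.7%) at least 2-fold lower, beside 20.9% of all genes. The Cripto KO median was -0.43 with 3 of 36 (8.33%), beside 19.4%. Cycs had 44.3% of its transcript repeated, at 42 places. Exons also overlap other genes, by 44.0% in Atp5o, 38.7% in Cox5a and 12.7% in Atp5j, which shares exon bases with Gabpa, and the strand setting of the counting is not given in the sources used here.

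In WT the other genes of the pathway listed here stood, by their medians, nearer to no difference than the 42 subunits and cytochrome c, whose median was -1.28. Of 35 listed assembly factors, a list that also holds the complex V inhibitor Atpif1, 27 were matched. In WT 25 were lower, 2 higher and 5 (18.5%) at least 2-fold lower, with a median log2 ratio of -0.58. By complex the WT medians were -1.14 for II (4 genes), -0.99 for III (4), -0.48 for IV (15) and -0.71 for V (4, with Atpif1). In Cripto KO they were -0.54, -1.07, -0.15 and -0.25 in the same order. Complex III was thus the exception, with no smaller change in Cripto KO and 2 of its 4 genes at least 2-fold lower there. Transcript length was not subtracted for these genes. In Cripto KO 22 were lower and 3 (11.1%) at least 2-fold lower, with a median of -0.22. Both shares at 2-fold were below those of all genes, 20.9% and 19.4%. Bcs1l and Surf1 were chosen as examples after their values were seen. Bcs1l, which inserts the Rieske protein, had 508, 144, 369 and 146 in WT serum/LIF, WT F/A, Cripto KO serum/LIF and Cripto KO F/A, and Surf1, a complex IV assembly factor, had 540.2, 492, 602 and 565. Thus Bcs1l was at least 2-fold lower in both genotypes and Surf1 nearly level. Ndufa4, now counted as a complex IV subunit, and the complex V subunits Usmg5 and 2010107E04Rik, which the symbols did not take, had WT log2 ratios of -1.11, -1.03 and -1.27 and Cripto KO ratios of -0.18, -0.03 and -0.33.

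The 6 mitochondrially encoded subunits of complexes III to V took 2.43% of all counts in WT serum/LIF, 1.31% in WT F/A, 2.28% in Cripto KO serum/LIF and 1.66% in Cripto KO F/A. On the quantile scale none of the 6 was at least 2-fold lower in WT, with a median log2 ratio of -0.29. The share of counts and the quantile value thus gave different sizes for these highly ranked genes, among which mt-Co1 had the same normalized value, 161296, in both serum/LIF libraries. Of 8 regulators of respiratory chain genes 7 were in the normalized table, 5 of them lower in WT F/A and none at a fold of 2. The WT log2 ratios were -0.40 for Nrf1, -0.74 for Gabpa, -0.26 for Esrra, -0.26 for Yy1 and -0.05 for Pprc1, and the 2 higher were Tfam, at 0.50, and Ppargc1b, at 0.27. In Cripto KO Tfam had -0.06 and Ppargc1b 0.24. Ppargc1a, a co-activator known for raising respiration in muscle and brown fat, had 0, 1, 0 and 0 counts in the 4 libraries.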

How the data were processed

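Total RNA of 4 cultures was sequenced in pairs of reads. Per the labels and the study's methods, the authors aligned reads to mm9 with TopHat2 (2.0.13) and counted them per Ensembl gene with HTSeq (0.6.1p1), and the strand setting is not given in the sources used here. The deposited raw table holds counts for 37620 genes, and the deposited normalized table holds a quantile-normalized signal for 15462 genes after the authors' filter on low counts. Quantile normalization gives all libraries 1 distribution of values, so a change shared by most genes cannot be seen. Normalized values were recomputed from the counts, and 100% of them came within 0.51 of the deposited ones.

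Symbols were matched from GENCODE M1 (NCBIM37) for 15424 genes. Ratios were taken of normalized values, with values of 0 set to 0.5. Intervals are 95% Clopper-Pearson intervals of the ratio of CPM (counts scaled by the library total) or of a share. A gene counts as detected above 3 counts, or 6 in Cripto KO F/A. With 1 library per condition no test was made, and at least 2-fold stands in for a call. Running medians over length used 501 genes. Repeated sequence was found with blastn 2.17.0 at 98% identity over at least 50 bases. Python 3.11.15, pandas 2.3.3, scipy 1.17.1, edgeR 4.0.16 and DESeq2 1.42.0 were used, the last 2 for scaling factors alone. The scripts were tested on simulated data.

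Values in each library and intervals are given for isoform families, for the lowest and highest WT change of each complex, for genes at least 2-fold different in Cripto KO or between genotypes, and for genes of opposite direction in the genotypes; the others are given by ratios, counts and ranges. The genes and lists were chosen with earlier results of these data known. Alternatives were other scalings, an added constant, a filter on low values, another fold and lengths of transcripts. No per-sample column was without a sample.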

Additional observations from a re-analysis of the deposited data

Results flagged for a closer look

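For 9 genes the log2 ratio of F/A over serum/LIF was below 0 in WT and above 0 in Cripto KO. The difference, Cripto KO minus WT, was 0.60 for Sdhd, 0.85 for Uqcrc2, 0.59 for Uqcrfs1, 2.12 for Cox4i2, 0.95 for Cox7a2l, 0.84 for Cox7a2, 0.68 for Cox6b2, 1.15 for Atp5d and 0.54 for Cox4nb. With 1 library per condition the difference was not tested. For Sdhd and Cox4i2 the counting interval of the Cripto KO ratio held 1, and for Cox6b2 that of the WT ratio did.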

How the results depend on the processing

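No paired analysis was possible because each condition had 1 library. For the same reason no library could be left out. Of 1472 recomputed single-gene values, 45 changed sign, 41 of them among the 552 with length subtracted, and none of the 45 was of a value at a fold of 2. The scaling of the counts (library totals, TMM factors of edgeR or size factors of DESeq2) left the WT median between -1.15 and -1.16 with 27 genes at least 2-fold lower. Of all 15462 genes, 3110, 3088 and 3100 were at least 2-fold lower in WT with these scalings.

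Transcript length moved the medians most among the choices tried. With the running median over the median transcript length, the longest transcript and the median coding transcript subtracted, in that order, the WT median was -0.77, -0.64 and -0.70 with 18, 9 and 12 genes at least 2-fold lower (39.1, 19.6 and 26.1%, beside 18.4, 17.4 and 17.9% of all genes), so with the longest transcript little of the excess over all genes was left. The Cripto KO median was -0.28, -0.25 and -0.24 with 3, 2 and 2 such genes. The median of Cripto KO against WT in F/A was 0.31, 0.17 and 0.21 with 1, 0 and 1 genes at a fold of 2, and the median difference between genotypes was 0.51, 0.33 and 0.43, with 3, 2 and 3 genes at 1 or more in place of 8. In serum/LIF the median of Cripto KO against WT was -0.19 with the longest and -0.21 with the coding transcript. The rank correlation with length was 0.32 for the longest and 0.60 for the coding transcript. The last 2 lengths for subtraction, the coding length for the correlation and the removal of repeated transcripts were chosen after seeing the data.

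The number of genes at least 2-fold higher in Cripto KO F/A than in WT F/A was 1 with library totals, 1 with TMM factors, 1 with DESeq2's size factors, 1 with 5 added to every value and 0 among genes with a mean of at least 200. Of all 15462 genes, 572 were so with library totals, 592 with TMM factors, 588 with size factors and 489 with 5 added. Without genes of repeated sequence, 3 genes (8.33%) were at least 2-fold lower in Cripto KO, beside 19.4% of all genes. At a fold of 1.5 the count in Cripto KO was 19 in place of 6, of which 18 were lower and 1 (Cox6b2) higher, beside 29.3% and 27.9% of all genes. It was 17 in place of 2 between genotypes in F/A, all higher in Cripto KO, beside 11.9% of all genes, and 4 in place of 0 in serum/LIF, all lower, beside 7.08%. Apart from the settings that take out genes or change the fold, the cause was not tested. Depth limited Cox4i2, Cox7a1 and the restricted forms outside the table.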
